A study of Mus musculus with 384 samples.

Results

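Immediate early genes are transcribed within minutes of a growth factor, stress or mechanical signal, without new protein synthesis. The 10 genes described here were Fos, Fosb, Fosl1, Jun, Junb, Jund, Egr1, Ier2, Ier3 and Srf, chosen by name from textbook knowledge as classical members of this response, with Srf as the factor that acts on many of their promoters. Earlier results of these data were known when the genes were chosen, so the choice was not blind to the data. They were taken as the rows of the raw count table whose Ensembl identifiers map to these symbols, and all 10 were among its 31617 genes. The data were single-cell RNA sequencing of mouse pluripotent stem cells, with 96 cells of each of 4 lines sorted into wells, 1 cell per well. The lines 5ar1 and 5ar2 were formative stem (FS) cells in A3XR, which held activin A at 3 ng/ml, XAV939 at 2 μM to block Wnt signaling by way of tankyrase, and BMS493 at 1 μM to block retinoic acid receptors. The lines AFX6 and AF32 were epiblast stem cells (EpiSCs), a primed state of pluripotency, with 20 ng/ml of activin A and added Fgf2, and AFX6 also had 2 μM of XAV939. Fgf2, which signals through ERK, was thus added to both EpiSC media and not to that of FS cells, while the activin dose and the inhibitor of retinoic acid signaling differed as well, so that the effect of 1 component cannot be told apart from the others. All lines grew in N2B27 on fibronectin.

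Cells with at least 3000000 counts were kept, 326 of 384, with 90, 90, 66 and 80 cells of 5ar1, 5ar2, AFX6 and AF32. They held 3022666 to 6686007 counts, and the medians of detected genes were 11371, 11567.5, 10328 and 10330.5 in the same order, lower in both EpiSC lines. Pou5f1, which defines pluripotent cells, reached 5 counts per 1000000 counts of a cell (CPM) in 97.5% to 98.9% of the cells of each line. The measured extraembryonic endoderm markers, 4 of 5 listed, summed to 1.6 to 7.8 CPM, and 4 of 5 fibroblast markers to 8.39 to 47.2 CPM. A line, not a cell, was taken as the replicate, and each EpiSC medium had 1 line. How cells were lifted before sorting, and which plate held which line, is not given in the sources used here, so that plate and line cannot be told apart.

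Fos proteins (Fos, Fosb, Fosl1) pair with Jun proteins (Jun, Junb, Jund) to form AP-1, a leucine zipper factor that binds TGANTCA. Egr1 is a zinc finger factor induced by ERK through Elk factors and Srf, and Srf binds the CArG box, a run of A and T between CC and GG. Ier2 encodes a small nuclear protein that rises after serum, and Ier3 encodes a stress-induced protein that affects survival. In pluripotent cells FGF and ERK signaling drives the exit from the naive state, and dissociation of cells is itself known to induce these genes.

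The genes lie on 7 chromosomes of GRCm38, and all are annotated as protein-coding. Junb, Jund and Ier2 share chromosome 8, and Ier3 and Srf share chromosome 17. The counting is not stated to use strand, so reads from overlapping exons of both strands cannot be told apart. This touched 57.2% of the exon length of Fosl1, which overlaps Ccdc85b, and 52.6% of that of Jund, which overlaps the antisense gene Gm11175. For Jun it was 7.28% and for Junb, which overlaps Prdx2, 7.52%. The neighbour of Fosl1, Ccdc85b, was measured at 28.5 to 40.7 CPM, far above Fosl1 itself, so the low values of Fosl1 are uncertain. Prdx2 was measured at 684 to 1089 CPM, far above Junb itself, and how far this touched the values of Junb was not tested.

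Upstream sequences are shown for Fos, Jun and Junb, which were higher in both EpiSC lines in level and in share of cells, and for Srf, which acts on such promoters. Each is the 250 bases before the RefSeq transcription start on GRCm38.p6, 5′ to 3′ on the strand of the gene, with matches in capitals. The motifs searched on both strands were the CArG box, TGANTCA (the AP-1 site), TGACNTCA (the longer site of Jun and Atf dimers) and TGACG (the start of the cAMP response element), and no match overlapped another.
Fos, chr12:85473640-85473889, + strand: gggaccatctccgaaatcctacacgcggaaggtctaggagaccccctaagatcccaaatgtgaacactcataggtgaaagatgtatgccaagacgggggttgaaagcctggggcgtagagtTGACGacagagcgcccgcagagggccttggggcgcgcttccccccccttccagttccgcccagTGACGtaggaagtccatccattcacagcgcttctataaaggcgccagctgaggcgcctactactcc
Jun, chr4:95052223-95052472, - strand: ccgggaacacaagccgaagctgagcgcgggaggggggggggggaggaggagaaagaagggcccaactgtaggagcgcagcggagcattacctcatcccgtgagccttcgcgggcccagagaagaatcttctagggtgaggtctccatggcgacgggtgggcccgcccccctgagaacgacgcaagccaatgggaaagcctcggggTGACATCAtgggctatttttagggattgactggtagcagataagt
Junb, chr8:84978749-84978998, - strand: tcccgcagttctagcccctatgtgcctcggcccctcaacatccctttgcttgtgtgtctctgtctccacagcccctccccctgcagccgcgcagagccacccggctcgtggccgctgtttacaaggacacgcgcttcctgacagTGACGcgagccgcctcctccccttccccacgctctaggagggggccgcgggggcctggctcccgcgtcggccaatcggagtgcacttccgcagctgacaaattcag
Srf, chr17:46556163-46556412, - strand: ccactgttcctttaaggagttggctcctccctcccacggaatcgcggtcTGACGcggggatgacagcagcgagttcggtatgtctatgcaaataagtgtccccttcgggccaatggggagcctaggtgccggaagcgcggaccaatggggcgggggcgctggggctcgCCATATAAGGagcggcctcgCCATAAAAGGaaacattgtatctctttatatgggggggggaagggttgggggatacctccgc

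Srf carried 2 CArG boxes, CCATATAAGG at 82 to 73 and CCATAAAAGG at 62 to 53 bases before its start, and 1.5% of 32851 windows of this length held a CArG box. Jun carried TGACATCA at 45 to 38 bases before its start, a form found in 7.49% of windows. TGACG stood at 129 to 125 and 66 to 62 bases before the start of Fos, at 106 to 102 before that of Junb and at 201 to 197 before that of Srf, and was found in 17.8% of windows. None of the 4 windows held TGANTCA, which 6.7% of windows did. A match is a description of letters and not evidence of binding. The RefSeq table held such a sequence for 7 of the 10 genes.

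The members fell into those found in nearly every cell, those found in a part of the cells, and those found in few. The share of cells with at least 5 CPM, which is at least 15 counts at the minimum depth, is given with exact Clopper-Pearson 95% intervals, which cover counting error only. Lines are named in the order 5ar1, 5ar2, AFX6 and AF32, and a summed CPM is the counts of a gene over all kept cells of a line per 1000000 counts of that line.

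**Figure D1:**
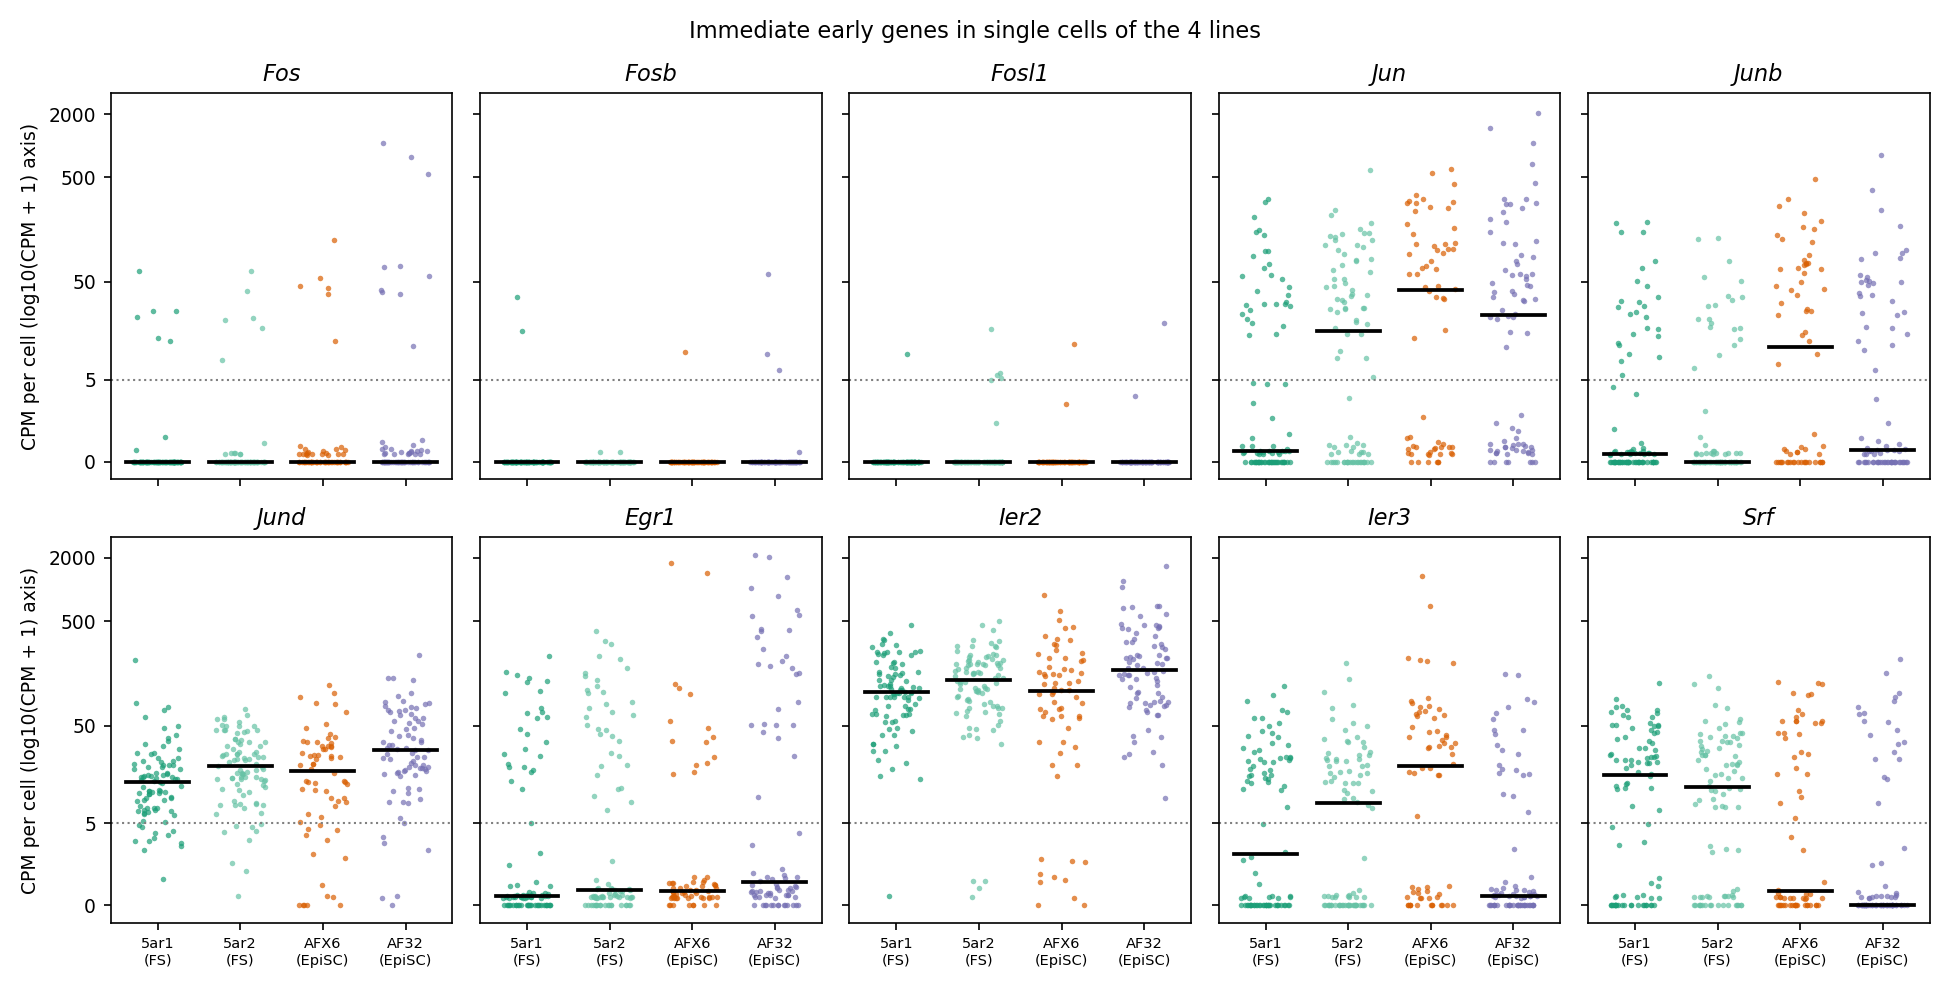
CPM of each member in each of the 326 kept cells, on a log10(CPM + 1) axis, by line, with the median of each line as a black bar and 5 CPM as a dotted line. Ier2 and Jund formed 1 broad band in most cells, Jun, Junb, Egr1, Ier3 and Srf had cells both far above and below 5 CPM, and Fos was high in a few cells only.

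Fos, the founding member of AP-1, was found in few cells of any line. Its median was 0 CPM in all 4 lines, and it reached 5 CPM in 6 of 90, 6 of 90, 6 of 66 and 10 of 80 cells, or 6.7% (2.5 to 13.9), 6.7% (2.5 to 13.9), 9.1% (3.4 to 18.7) and 12.5% (6.2 to 21.8). The shares in both EpiSC lines were above those in both FS lines, but all 4 intervals overlapped. Its summed level was 2.0, 1.9, 5.0 and 35.7 CPM, and the highest cell of each line had 64.3, 64.1, 128 and 1077 CPM. A few cells thus carried the level: the 5 cells with most Fos counts held 92.6%, 93.9%, 95.1% and 91.8% of all Fos counts of their line. Over all genes with at least 5 CPM in a line the median of this share was 22.1%, 19.9%, 34.6% and 28.7%. Since only 6 to 10 cells reached 5 CPM of Fos, its high shares follow largely from that. Fos counts below 5 CPM were found in 2, 7, 18 and 20 further cells, more of them in the EpiSC lines, and the source of these low counts was not tested.

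Fosb and Fosl1, its relatives, were close to absent. Fosb summed to 0.634, 0.00460, 0.129 and 0.970 CPM and reached 5 CPM in 2, 0, 1 and 3 cells, where 0 of 90 cells in 5ar2 has an upper bound of 4.02%. Fosl1 summed to 0.116, 0.446, 0.225 and 0.287 CPM and reached 5 CPM in 1, 5, 1 and 1 cells. Both states overlapped for both genes. The highest cell of AF32 for Fos was the only cell of the 326 with all 10 members at 5 CPM or more, with 1077 CPM of Fos, 59.5 of Fosb, 2145 of Egr1, 1469 of Jun, 825 of Junb and 1672 of Ier2.

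Jun, the main partner of Fos, was found in 33.3% or more of the cells of each line. It reached 5 CPM in 33.3% (23.7 to 44.1), 56.7% (45.8 to 67.1), 59.1% (46.3 to 71.0) and 58.8% (47.2 to 69.6) of cells. Its summed level was 25.9, 46.9, 90.9 and 130 CPM, with medians of 0.253, 16.6, 41.5 and 23.8 CPM. Both EpiSC lines were above both FS lines in level, share and median, but in share 5ar2 lay next to the EpiSC lines and apart from 5ar1.

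Junb, which often opposes Jun at AP-1 sites, was likewise higher in the EpiSC lines. It reached 5 CPM in 28.9% (19.8 to 39.4), 22.2% (14 to 32), 53.0% (40.3 to 65.4) and 38.8% (28.1 to 50.3) of cells, with summed levels of 14.6, 8.30, 48.4 and 36.8 CPM. AFX6 had the highest share, and its interval lay above those of both FS lines. The median cell had 0.185, 0, 11.3 and 0.292 CPM, so that in AF32 the difference lay in the upper part of its cells.

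Jund, the Jun protein that is mostly constitutive, was found in most cells of each line. It reached 5 CPM in 86.7%, 90.0%, 77.3% and 92.5% of cells and summed to 18.6, 24.2, 23.2 and 41.1 CPM. The 2 states overlapped in both measures, and AF32 was the highest line.

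Egr1 had a similar share of positive cells in all lines and very different sums. It reached 5 CPM in 30.0% (20.8 to 40.6), 38.9% (28.8 to 49.7), 22.7% (13.3 to 34.7) and 37.5% (26.9 to 49.0) of cells, where the states overlapped. Its summed level was 20.1, 37.6, 66.7 and 163 CPM, higher in both EpiSC lines. Among cells with at least 5 CPM the median was 46.5, 62.7, 38.4 and 202 CPM, and cells at 100 CPM or more numbered 8, 13, 5 and 20, so that AF32 stood out by its level per positive cell and AFX6 did not. In AFX6 a single cell, at 1783 CPM, held 44.8% of all Egr1 counts of the line and 5 cells held 93.0%. The median share of 5 cells over all genes with at least 5 CPM in a line was 34.6% in AFX6.

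Srf was found in 60.0% (49.1 to 70.2), 63.3% (52.5 to 73.2), 43.9% (31.7 to 56.7) and 25.0% (16.0 to 35.9) of cells, less often in both EpiSC lines. Its summed level of 22.5, 21.6, 23.7 and 15.0 CPM overlapped between the states, and its median was 16.3, 12.3, 0.359 and 0 CPM. Fewer cells with more Srf each gave the sum of AFX6, since positive cells had a median of 29.3, 25.7, 52.4 and 50.2 CPM. This pattern is not particular to Srf, because 58.3% of the 11728 genes with at least 5 CPM in a line had both FS lines above both EpiSC lines in this share.

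Ier2 was the highest member in every line, and the only one at 5 CPM in every cell of AF32. It reached 5 CPM in 98.9%, 95.6%, 84.8% and 100% of cells, with medians of 105, 138, 107 and 173 CPM and summed levels of 130, 153, 154 and 266 CPM. AFX6 and 5ar2 differed by 1 CPM, so the order of the states rests on AF32. Ier3 instead was highest in AFX6, with summed levels of 16.2, 17.5, 57.1 and 13.4 CPM and shares of 47.8%, 52.2%, 60.6% and 27.5%, so that the 2 EpiSC lines lay on either side of the FS lines.

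Levels of different genes were compared per kilobase of merged exons, as mean CPM. In 5ar1 the order was Ier2 at 85.4, Ier3 at 14.2, Jund at 11.6, Jun at 8.14, Srf at 7.88, Junb at 6.2, Egr1 at 4.56, Fos at 0.787, Fosb at 0.0931 and Fosl1 at 0.0526 CPM per kb. In AF32 it was Ier2 at 171, Jun at 38.6, Egr1 at 35.9, Jund at 24.8, Junb at 15.3, Fos at 14.6, Ier3 at 11.6, Srf at 5.42, Fosb at 0.151 and Fosl1 at 0.142 CPM per kb. Ier2 led in both lines by over 4 times, whereas neighbours such as Jun and Srf in 5ar1 or Jun and Egr1 in AF32 are close beside the wide spread over cells.

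**Figure D2:**
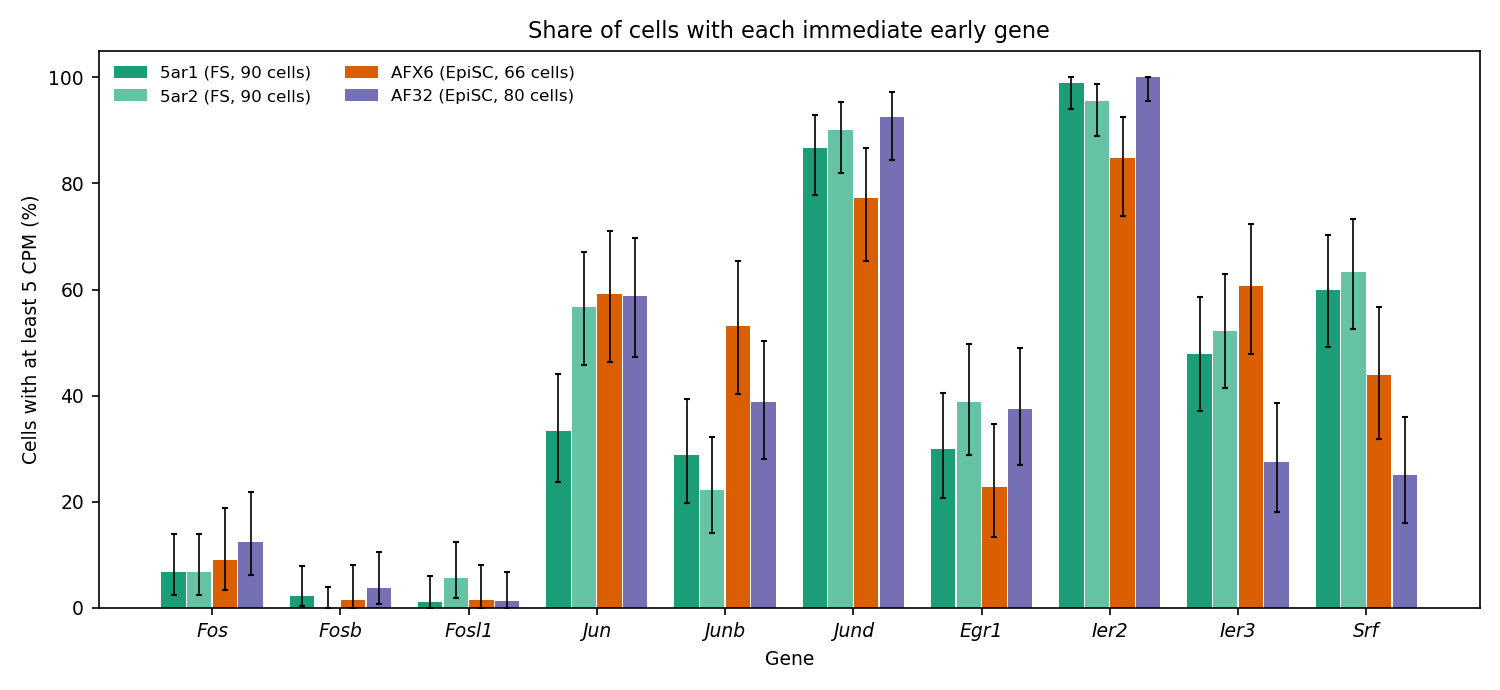
Percent of cells with at least 5 CPM of each member, by line, as bars from 0 with exact 95% intervals that cover counting error only. Jun and Junb were highest in the EpiSC lines, Srf was highest in the FS lines, and Egr1 overlapped between the states.

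Members at 5 CPM or more in the same cell were counted. The median cell had 4, 5, 4 and 4 of the 10 members, and the most in a cell was 7, 7, 8 and 10. Egr1 was also present in 4 of 6, 5 of 6, 5 of 6 and 8 of 10 cells with Fos, while Fos was present in 14.8%, 14.3%, 33.3% and 26.7% of cells with Egr1. Egr1 thus accompanied Fos in most Fos cells of each line, and most Egr1 cells had no Fos at this threshold. Of the 5 highest cells for Fos and the 5 highest for Egr1, 2, 0, 1 and 3 were the same cells, so the cells that carry the 2 sums were only partly shared.

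FS cells and EpiSCs were then compared with lines as replicates, 2 against 2, with edgeR's quasi-likelihood test on counts summed per line and Benjamini-Hochberg adjustment over 22606 genes. Jun, Junb, Egr1 and Fos had the largest differences per standard error, all higher in EpiSCs, and 8 of the 10 members had a log2 fold change above 0, where 50.5% of all genes tested did. The median log2 fold change of the members was 0.93, and that of all genes tested was 0.01. No member passed the adjusted p of 0.05 and the log2 fold change of 1.4 (0 of 10), and 0% of all genes tested did. At an unadjusted p under 0.05, 4 members (Fos, Jun, Junb and Egr1) and 16.1% of all genes tested were found. The spread between lines of a state was wide, with a common dispersion of 0.653, and the smallest adjusted p of any gene was 0.190.

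Jun was higher by 1.6 ± 0.39 (SE) on the log2 scale with an adjusted p of 0.190 by edgeR. Junb was higher by 1.9 ± 0.39 with an adjusted p of 0.190, Egr1 by 1.99 ± 0.57 with 0.224 and Fos by 3.34 ± 1.04 with 0.245. Each of these 4 genes had both EpiSC lines above both FS lines in summed CPM, as had Ier2, at 0.57 ± 0.31 with an adjusted p of 0.482. Of the 8 members with at least 5 CPM in a line, these 5 had this order, and 27.6% of all such genes did. Ier3 was at 1.08 ± 0.75, Jund at 0.59 ± 0.37 and Srf at -0.18 ± 0.34, with adjusted p of 0.600, 0.556 and 0.888. Fosb and Fosl1 had standard errors of 2.2 and 1.1, larger than their differences of 0.78 and -0.14.

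DESeq2, with another estimate of the spread, called 4 members higher in EpiSCs and 8.12% of 22277 genes in either direction. They were Junb with an adjusted p of 0.000300, Jun with 0.00304, Fos with 0.00340 and Egr1 with 0.00719, at log2 fold changes of 1.9, 1.6, 3.4 and 2.0. The calls thus rest on the tool, while the fold changes hardly moved. Without AF32 the edgeR log2 fold change of Fos was 1.4 in place of 3.34 (4.15 without AFX6, and 2.3 by limma on mean CPM per cell), and that of Egr1 was 1.2 in place of 1.99. Without AFX6 that of Ier3 was -0.35 in place of 1.08 (1.8 without AF32), so its direction rests on AFX6. Leaving out AFX6 or AF32 also moved the median of all genes to -0.17 and -0.21.

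**Figure D3:**
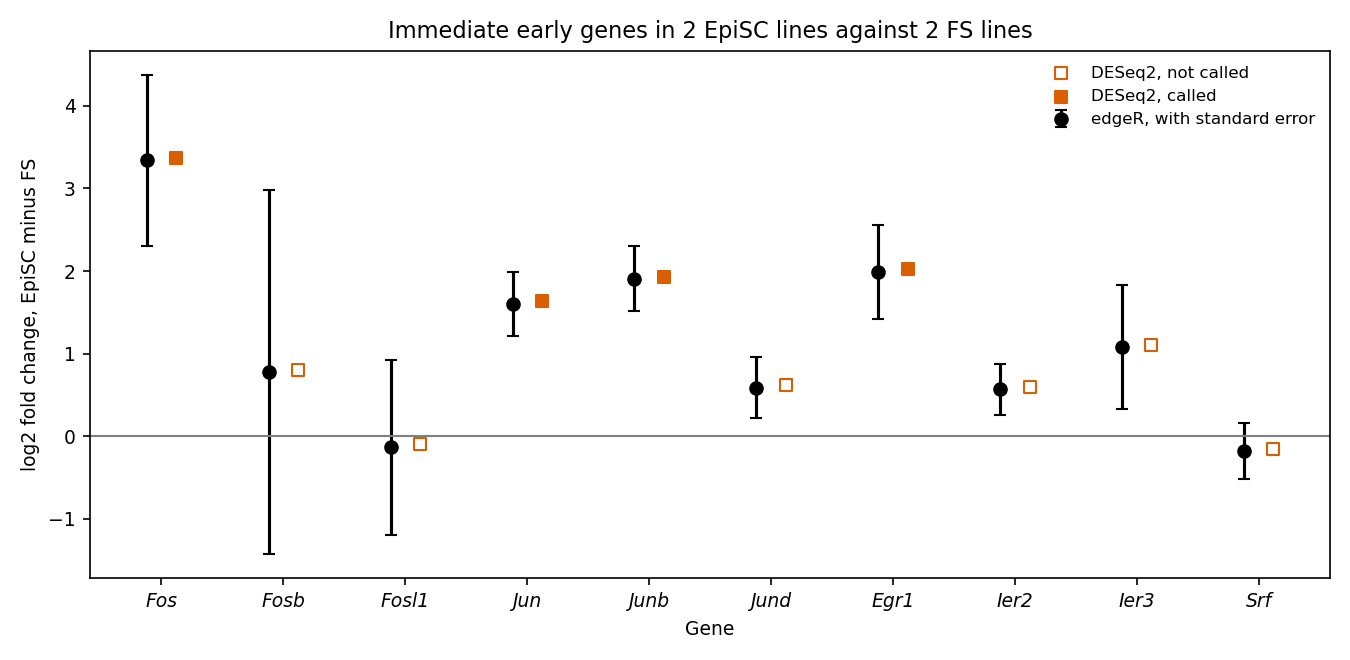
Log2 fold change of each member, EpiSC minus FS, from counts summed over 2 lines a state, as edgeR estimates with standard errors (circles) and DESeq2 estimates (squares, filled where called). Fos, Jun, Junb and Egr1 lay above 1.5 by both tools, and the errors of Fosb, Fosl1 and Srf spanned 0.

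Without the highest cells the order of the states was lost for Egr1 and kept for Jun and Junb. In AFX6 the 5 cells with most counts held 93.0% of Egr1 counts, 36.1% of Jun counts and 41.3% of Junb counts. Egr1 did not stand apart in AF32, where these shares were 57.1%, 62.1% and 61.7%. With all kept cells the mean CPM per cell of Egr1 was 20.4, 37.7, 58.8 and 161, and without the 5 highest cells of each line it was 11.9, 22.6, 5.37 and 72.7. AFX6 then had the lowest mean of the 4 lines, and the states overlapped. For Jun the means without these cells were 14.2, 32, 66.9 and 55.2 CPM, and for Junb 6.2, 3.8, 30.7 and 14.6 CPM, with both EpiSC lines above both FS lines. Fos kept this order too, at 0.166, 0.117, 0.284 and 2.6 CPM, where all but AF32 were under 1 CPM. Thus 5 of the 8 members had both EpiSC means above both FS means with all cells. They included Jund, at only 24.1 CPM in AFX6 beside 24.0 in 5ar2, and not Ier2. By summed CPM, where Ier2 and not Jund had this order, 27.6% of all such genes did. Without the 5 highest cells 3 members had it, where 19.2% of all such genes did. Cells were left out by their own values in every line, which was chosen after the data were seen and carries no test.

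**Figure D4:**
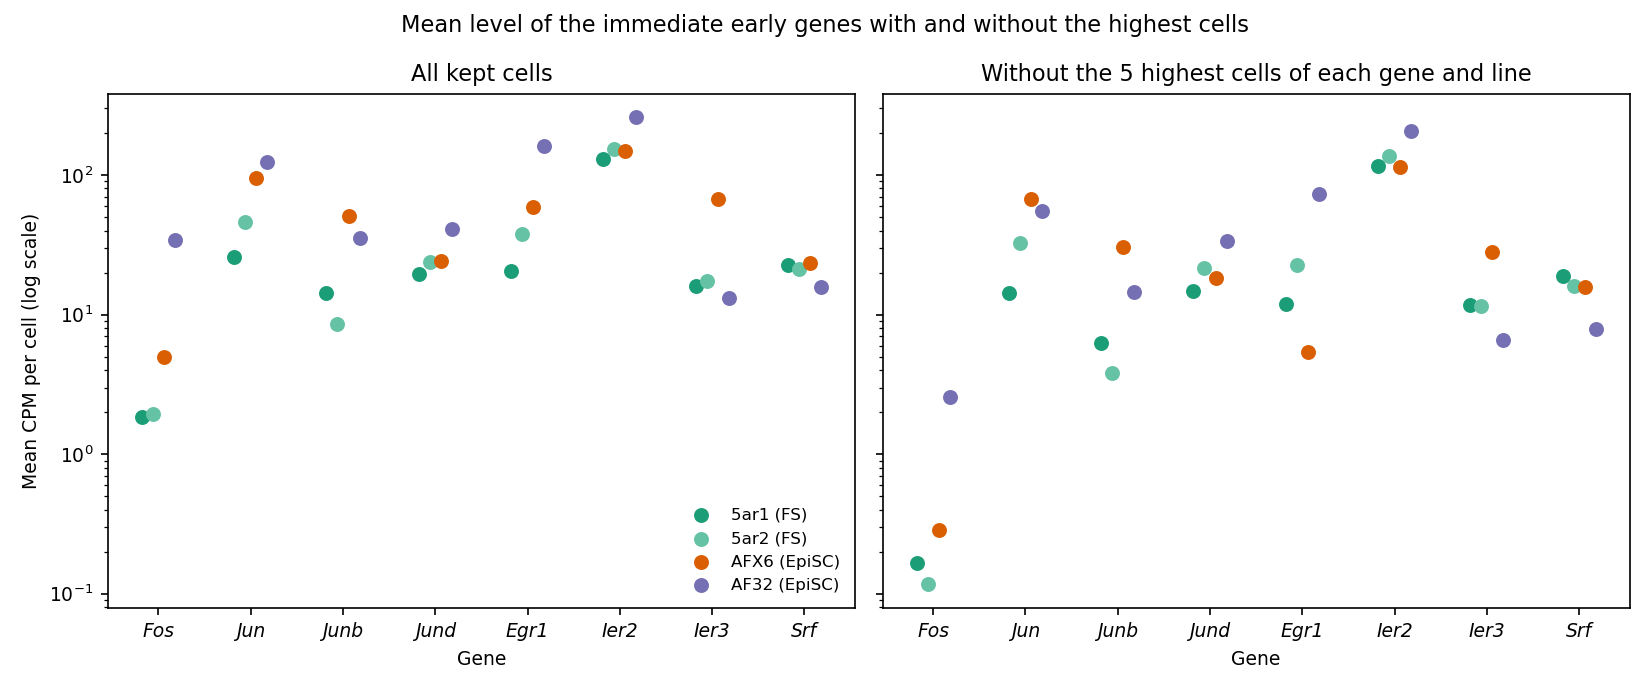
Mean CPM per cell of the 8 members with at least 5 CPM in a line, on a log axis, with all kept cells (left) and without the 5 highest cells of each gene and line (right), 1 point per line. Jun and Junb stay higher in both EpiSC lines, whereas the AFX6 point of Egr1 falls from 58.8 to 5.37 CPM, below both FS lines.

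Shares of cells gave a related picture. Fos, Jun and Junb had both EpiSC lines above both FS lines, 3 of the 8, where 6.5% of all such genes had this order, and Srf had the opposite one. For Jun this order was lost when 14 cells with few detected genes were left out, with 58.1% of cells in 5ar2 and 57.3% in AF32.

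Genes that act with the members were examined as lists, and no gene of any list passed the edgeR test (0 called). Beside the counts of each list, 50.5% of all genes tested had a log2 fold change above 0 and 16.1% an unadjusted p under 0.05 by edgeR. Among 9 tested AP-1 and leucine zipper partners 5 were higher and 4 lower in EpiSCs, with a median log2 fold change of 0.23. Atf3, a stress-induced partner of Jun, was at -1.41 ± 0.20 with an adjusted p of 0.190 and 57.6, 55.8, 19.8 and 22.6 CPM, opposite in sign to Jun. Mafk was at 1.1 ± 0.59 and Atf7 at 0.77 ± 0.46. All 5 Egr relatives and Nab corepressors, which bind Egr proteins, had log2 fold changes above 0, with Nab1 at 0.30 ± 0.32, Nab2 at 0.17 ± 0.79 and Egr4 at 3.22 ± 3.01.

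Of the 6 tested cofactors of Srf, 4 were higher and 2 lower in EpiSCs. The ternary complex factors Elk4 and Elk1 were at 1.1 ± 0.47 and 0.50 ± 0.31, and the actin-regulated coactivator Mrtfa at -0.77 ± 0.32. Of 14 cytoskeletal targets of Srf, 8 were higher, with a median of 0.18. Ccn1, a secreted matrix protein that is itself an early gene, was at 1.9 ± 0.31, with 142, 233, 749 and 656 CPM and an adjusted p of 0.190. Ccn2 and Acta2 varied between lines of the same state, at 45.6, 9.52, 8.19 and 344 CPM and at 11.6, 535, 41.2 and 0.340 CPM.

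Of 31 other immediate early genes tested, 19 were higher in EpiSCs, with a median of 0.46, and 9 had an unadjusted p under 0.05, 7 of them higher. The kinase Pim1 was at 2.7 ± 0.91, with 108 CPM in AFX6 beside 10.1, 9.50 and 19.1 in 5ar1, 5ar2 and AF32. Zfp36, which destabilizes early mRNAs, was at 2.5 ± 0.59, and its relative Zfp36l2 was at -2.07 ± 0.37. Of 14 feedback genes of the ERK pathway 9 were higher, with a median of 0.34. Dusp6, a phosphatase of ERK, was at 1.06 ± 0.36 with 144, 168, 417 and 226 CPM, Dusp4 at 1.3 ± 0.65 and Spry1 at 1.2 ± 0.64.

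A list of heat shock genes and a list of G2/M genes are given beside these values, with no gene called. The heat shock list was drawn up for the dissociation response, but whether it marked dissociation stress in these cells was not tested. Of 11 heat shock genes 9 were lower in EpiSCs, with a median of -0.82 and 4 at an unadjusted p under 0.05, among them Hsph1 at -1.54 ± 0.30 and Hspd1 at -1.29 ± 0.19, while Hspb1 was at -1.10 ± 0.78. All 10 G2/M genes had log2 fold changes above 0, with a median of 0.51 and 3 at an unadjusted p under 0.05, with Top2a at 0.98 ± 0.17, Ccnb2 at 0.73 ± 0.15 and Mki67 at 0.71 ± 0.32. Of all genes tested by edgeR, 50.5% lay above 0 and 16.1% had an unadjusted p under 0.05. In share of cells with at least 5 CPM, Top2a and Ccnb2 were instead lower in both EpiSC lines, and Mki67 overlapped. The part of these lists in the levels of the members was not tested.

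No marker of the states was called in the same fit either (0 of 7 pluripotency markers). The largest differences among these were Nanog at 3.17 ± 0.51, Fgf5 at -2.72 ± 0.26 and Dnmt3b at -1.72 ± 0.28, and the streak and endoderm marker Eomes was at -3.12 ± 0.27, each with an adjusted p of 0.190 by edgeR, while Pou5f1 was at -0.09 ± 0.19. T summed to 0.144, 0.179, 0.382 and 39.1 CPM and Foxa2 to 0.00232, 1.7, 0.00601 and 7.9 CPM, highest in AF32. In that line only 2.5% of cells reached 5 CPM of T and 16.25% of Foxa2. Tubb3 was highest in 5ar1, at 335, 130, 12.2 and 68.7 CPM, and Sox1 in AF32, at 8.36 CPM. Of the extraembryonic endoderm and fibroblast markers, Dab2 had at most 6.8 CPM and Col1a1, Dcn and Col1a2 at most 27.7, 8.57 and 10.9 CPM, all in 5ar2.

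The EpiSC lines AF32 and AFX6 differ in medium by XAV939, but each medium had 1 line, so medium and line cannot be told apart and no test was made. Fos was 7.2-fold (6.8 to 7.6) and Egr1 2.443-fold (2.405 to 2.481) higher in AF32, and Ier3 was 4.3-fold (4.1 to 4.4) higher in AFX6, with exact 95% intervals for counting error only. Of the 8 members compared, 2 were thus at least 2-fold higher in AF32, where 13.3% of 11260 genes were, and 1 was at least 2-fold higher in AFX6, where 8.4% were. Jund was 1.8-fold, Ier2 1.7-fold and Jun 1.4-fold higher in AF32, and Srf 1.6-fold and Junb 1.3-fold higher in AFX6. In medians of cells Jun was instead lower in AF32, at 0.574 of AFX6. The intervals leave out the spread over cells. A single cell held 39.1% of the Fos counts of AF32 and 36.8% of those of AFX6. For Egr1 it held 17.1% in AF32 and 44.8% in AFX6.

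The FS lines 5ar1 and 5ar2 shared a medium. None of the 7 members compared was 2-fold apart (0 of 7), where 6% of 10744 genes were. Egr1 was 1.867-fold (1.819 to 1.916) and Jun 1.806-fold (1.765 to 1.849) higher in 5ar2, and Junb 1.754-fold (1.683 to 1.827) higher in 5ar1. The median cell of 5ar2 had 16.6 CPM of Jun and that of 5ar1 0.253 CPM, since 56.7% and 33.3% of their cells reached 5 CPM. Among cells with at least 5 CPM the medians were 48.5 CPM in 5ar2 and 42.7 CPM in 5ar1. The lines thus differed in the share of cells with Jun more than in its level in those cells.

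Covariation over cells of a line was described with Spearman's rho, with no test, since cells of a line share a culture and a sort. Jun, Junb, Jund, Egr1, Ier2, Ier3 and Srf were among the 8737 genes with at least 5 CPM in at least 20% of the cells of every line. Their 21 pairs had a median rho of 0.11, 0.06, 0.22 and 0.13, weak, but above the medians of all gene pairs, which were 0.0070, 0.0051, 0.024 and 0.011. In all 4 lines 12 of the 21 pairs had a rho above 0, where 10.2% of 38163216 gene pairs had.

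Egr1 and Ier2 had the highest mean rho, at 0.13, 0.45, 0.34 and 0.30. Jun and Jund had 0.26, 0.36, 0.27 and 0.26. Junb and Ier2 had 0.32, 0.04, 0.28 and 0.40, Junb and Egr1 0.40, 0.01, 0.26 and 0.19, and Jun and Egr1 0.15, 0.23, 0.50 and 0.05, so that single pairs were high in 1 or 2 lines and near 0 in others. The pairs of Ier3 differed in sign between lines, with Egr1 and Ier3 at 0.16, -0.17, 0.40 and 0.18, Ier2 and Ier3 at -0.03, -0.18, 0.22 and 0.11, and Ier3 and Srf at -0.02, 0.31, 0.10 and 0.0019, except Jun and Ier3, at 0.07, 0.13, 0.15 and 0.03. Fos, with few positive cells, had 0.18, 0.23, 0.28 and 0.27 with Egr1.

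**Figure D5:**
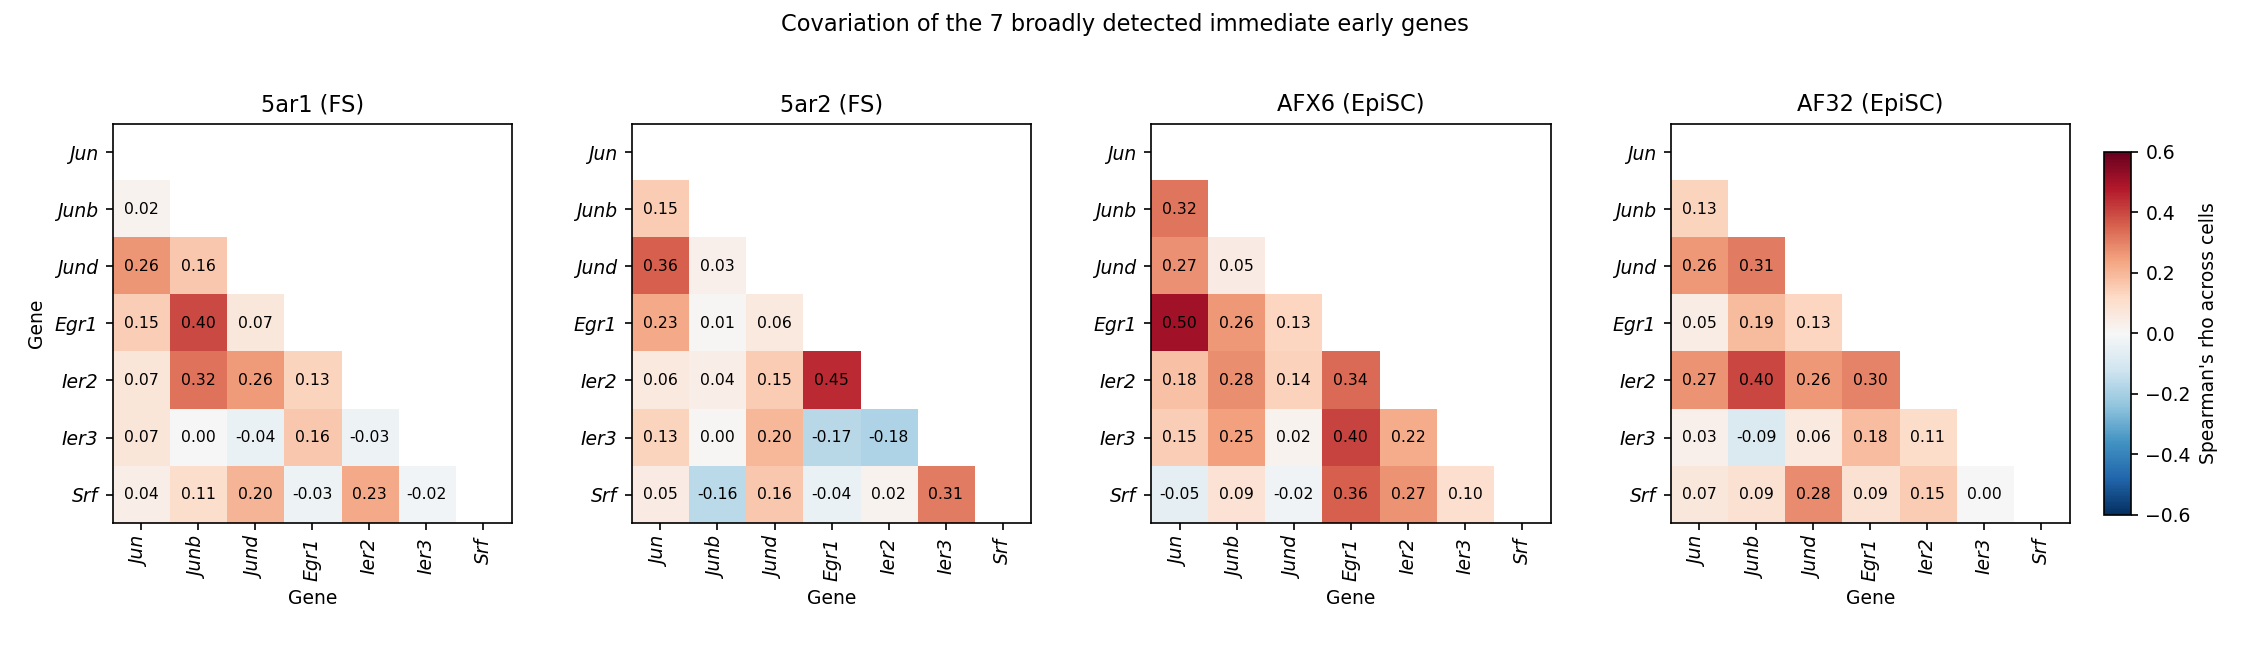
Spearman's rho across the kept cells of each line for the 21 pairs of the 7 broadly detected members, with the value in each square and red above 0. Most squares are positive in every line, and the highest is 0.50 for Jun and Egr1 in AFX6.

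Over the 7 members and 4 lines rho lay between -0.27 and 0.25 with counts, -0.26 and 0.30 with detected genes and -0.24 and 0.18 with the mean of the G2/M genes. It lay between -0.24 and 0.37 with the heat shock genes, with a median of 0.06, and between -0.11 and 0.45 with the ERK feedback genes, with a median of 0.19. The highest of these was Ier2 with the ERK feedback genes in AFX6, at 0.45, beside 0.43 in AF32 and 0.18 and 0.19 in 5ar1 and 5ar2. With the other immediate early genes the range was -0.08 to 0.48 and the median 0.21. Such values were not computed over all genes, so whether these ranges and medians are particular to the members cannot be told.

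In AF32 the 3 members on chromosome 8 moved with the rest of that chromosome. The rho with the mean of its other genes, relative to the median autosome, was 0.44 for Ier2, 0.38 for Jund and 0.29 for Junb in AF32, and between -0.19 and 0.07 in the other lines. Given this mean, the rho of Junb and Ier2 in AF32 was 0.32 in place of 0.40, that of Junb and Jund 0.23 in place of 0.31, and that of Jund and Ier2 0.11 in place of 0.26. Copy number was not measured here.

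The genes most alike to 6 of the members were named by the highest mean rho over the 4 lines, among 8737 genes less the members. For Jun they were Ccn1 (0.30), the zinc finger factor Klf6 (0.30) and the small GTPase Rhob (0.27). For Egr1 they were Actg-ps1 (0.28), the orphan nuclear receptor Nr4a1 (0.28) and Ccn1 (0.27). For Junb they included Pim1 (0.32) and vinculin, or Vcl (0.26). For Ier2 they were gamma actin, or Actg1 (0.35), and the processed pseudogenes Gm8399 and Gm12715 (0.34 each). For Srf they were Ifrd1 (0.26), the kinase Csnk1d (0.25) and Whrn (0.25), and for Fos Tsen54 (0.21), BC030867 (0.21) and Nr4a1 (0.19). Ccn1, Klf6, Rhob, Nr4a1, Pim1, Vcl and Actg1 were also in the lists of early or cytoskeletal genes. Those lists were chosen with earlier results of these data known, so this overlap is a description and not independent support. Values of Actg-ps1 and of the other pseudogenes are uncertain where reads match a near-identical copy.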

How the data were processed

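The authors aligned the reads of full-length Smart-seq2 libraries, 1 cell per well, with STAR 2.7.3a to GRCm38.p6 with Ensembl v98 and deposited featureCounts 2.0.0 counts of uniquely mapped reads, which are raw counts per gene and cell. They also deposited a table normalized with sctransform, whose whole numbers are treated as a score, since the kind of output is not stated; it held the same 326 cells and served as an alternative only. No doublet caller was run.

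Genes were named with GENCODE M21 (52 had no symbol), and no pair of cells had identical counts. Cells with at least 3000000 counts were kept, and CPM is a count of a gene per 1000000 counts of its cell. Counts were summed per line and tested with edgeR 4.0.16 (limma 3.58.1, R 4.3.3) after its filter on low counts and TMM scaling, with DESeq2 1.42.0 as an alternative, and a call needed both an adjusted p below 0.05 and a log2 fold change beyond 1.4 in either direction. With 2 lines a state, p-values measure only the spread between these lines. Shares, medians and Spearman's rho were computed with Python 3.11.15, pandas 2.3.3, numpy 2.4.6 and scipy 1.17.1, and drawn with matplotlib 3.10.9. The precision of shares is set by 66 to 90 cells a line, and intervals cover counting error only, since the reads carried no molecular identifiers and may be copies of one molecule. The steps were tested on simulated data with random seed 1.

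Alternatives were other minimum depths of 2000000 and 4000000 counts, thinning of each kept cell to 3000000 counts, leaving out cells with few detected genes (over 3 median absolute deviations below the median), thresholds of 1, 10 and 20 CPM, means and medians of cells, the normalized table, other filters, scalings and tools, and leaving out each line. Named genes are all members and the 3 genes with the highest mean rho to each of 6 members, and in each list up to 3 genes with the largest absolute log2 fold change among those with at least 5 CPM in a line. One gene that this rule names is not reported here. The members and lists were chosen with earlier results of these data known.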

Additional observations from a re-analysis of the deposited data

Results flagged for a closer look

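The 58 cells under 3000000 counts, 6, 6, 30 and 16 of 5ar1, 5ar2, AFX6 and AF32, entered none of the comparisons above (those with at least 2000000 counts entered an alternative), and their summed counts lay above the limit that a count of 0 allows (0.0316 CPM) for 9 members. Fos summed to 33.9 CPM in these cells beside 10.4 CPM in the kept cells, and Fosb to 8.36 CPM beside 0.427 CPM. Jun was at 119 CPM beside 69.6, Junb at 69.3 beside 25.1, Jund at 34.2 beside 26.3 and Ier3 at 113 beside 24.7 CPM. Ier2 was at 198 CPM beside 173, Srf at 27.2 beside 20.8, and Egr1 at 45.4 beside 67.6 CPM, lower as was Fosl1, at 0.0105 beside 0.271 CPM, under that limit. Single cells carried much of this, 40.8% of the Fos counts and 54.4% of the Fosb counts, and 30 of the 58 cells were of AFX6, so these sums mix lines in other proportions than the kept cells. Within AFX6, Fos was at 36.8 CPM beside 4.97, Junb at 125 beside 48.4 and Ier3 at 195 beside 57.1 CPM, while within AF32 Fos was at 36.1 beside 35.7, Junb at 10.0 beside 36.8 and Ier3 at 13.4 beside 13.4 CPM. The highest cell of each gene held 72.3%, 22.4% and 43.7% of the Fos, Junb and Ier3 counts of these AFX6 cells. In the AF32 cells it held 55.8%, 44.1% and 81.6%. These differences between cells under and over the threshold were not tested. With 2 lines a state, no line could be examined as an outlier of its group.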

How the results depend on the processing

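Of the 849 alternative values computed, 8 counts over genes and 88 single values moved beyond their spread, 4 passed the test that they had missed, 6 log2 fold changes reversed, and the others stayed within these bounds. Among the untested folds that moved, that of Jun in AF32 over AFX6 turned from 1.4 to 0.574 in medians of cells, and that of Srf in 5ar2 over 5ar1 from 0.962 to 1.001 and 1.019 at 2000000 and 4000000 counts. With DESeq2, 4 members in place of 0 and 1808 genes in place of 0 were called. At a threshold of 1 CPM, 2 members in place of 1 had both FS lines above both EpiSC lines in share. With the 1 highest cell or the 5 highest cells of each gene and line left out, an alternative chosen after seeing the data, 3 members each time in place of 5 had both EpiSC lines above both FS lines in mean CPM. The number of members at least 2-fold apart between 5ar1 and 5ar2 was 1 in place of 0 at 4000000 counts (Egr1), 1 without cells of few detected genes (Jun) and 3 in medians of cells (Jun, Junb and Ier3). For each of these 3 the median of 5ar1 lay under 5 CPM, and those of Junb were 0.185 and 0 CPM. Leaving out 1 line at a time, the log2 fold change ran from -1.26 to 6.8 for Fosb, -0.78 to 1.2 for Fosl1, -0.35 to 1.8 for Ier3 and -0.57 to 0.14 for Srf, each reversed by at least 1 line. The sign of Fosb turned without 5ar2 (-0.21) or AF32 (-1.26), that of Fosl1 without 5ar2 (1.2) or AFX6 (0.0092), that of Ier3 without AFX6 and that of Srf without AF32. The fold of Ier3 between AF32 and AFX6, 0.234, was 0.376 at 4000000 counts. The cause of these changes was not tested, except that leaving out cells or lines reduces the data. No paired analysis was possible because the numbers in the labels only count the cells of a line, and the lines share no number. At a thinned depth of 3000000 counts the Fos shares stayed at 6.7%, 6.7%, 9.1% and 12.5%, and these values rest on 6 to 10 cells a line.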
